A study of Mus musculus with 9 samples.

Results

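Amino acid and neurotransmitter transporters were followed in ribosome-bound RNA of a glial fraction of the mouse retina after crush of the optic nerve. They were chosen by name: every gene of the table whose symbol belongs to the solute carrier families SLC1, SLC3, SLC6, SLC7, SLC36, SLC38 or SLC43, except Slc1a3, Slc38a3, Slc7a11 and Slc6a9. The rule uses no measured value and gave 38 of the 14194 genes of the table. There were 10 members each in SLC6 and SLC7, 7 in SLC38, 6 in SLC1, 2 each in SLC36 and SLC43, and 1 in SLC3. All mice were of the genotype Aldhl1l-Cre/Ert2+; NuTRAP+. In these mice the promoter of the astroglial gene Aldh1l1 drives a Cre that tamoxifen activates (Ert2), which switches on a tagged ribosome that is pulled down with an antibody against GFP, so retinal astrocytes may be tagged along with the intended Müller glia. Only the pulled-down (Positive) fraction was used. ONC eyes had a forceps crush of 3 s, placed roughly 1 mm from the eye, and retinae were taken 72 h later. The Control group holds the fellow eyes, untreated or after sham surgery, without a label telling these apart. Each library pooled 2 retinae. There were 5 ONC libraries (animal pools 913/986, 914/92, 938/88, 976/978 and 981/982) and 4 Control libraries (914/92, 938/88, 976/978 and 981/982), and single values below stand in these orders. The control eyes of pool 913/986 were not used here, and the labels give no ages.

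These carriers move amino acids and transmitters across cell membranes. Members of SLC1 and SLC6 use the sodium gradient to clear glutamate, GABA, glycine, taurine and creatine, and Müller glia are known for the uptake of glutamate and GABA in the retina. SLC7 members carry neutral or cationic amino acids, and its light chains do so only when joined to an SLC3 heavy chain, and SLC38 carries glutamine and other small neutral amino acids. SLC36 and some SLC38 members work in lysosomes, and SLC43 members carry large neutral amino acids or nucleobases. When amino acids are short or protein folding fails, the transcription factor ATF4 is known to switch on a subset of these genes.

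After crush, no transporter passed the test over all genes, and the differences lay in both directions. The largest difference was that of Slc7a3, a carrier of arginine and lysine, at 1.74 ± 0.45 (SE), and the smallest adjusted p was that of Slc6a8, the creatine transporter, at 0.0677. Values are log2 and relative to a control baseline of each gene, so 0 is the usual control level and a difference of 1 is a doubling on the linear scale. They hold no absolute level, and levels of different genes cannot be compared. With limma, an adjusted p under 0.05 was reached by 0 of 38 members and by 1.16% of all genes. At an unadjusted p under 0.05 there were 9 members, which is 23.7% against 19.5% of all genes. That count moved with single libraries, and so did the share of all genes. It was 3 without Control 938/88 (7.89% of members against 13.9% of all genes). It was 4 (10.5%) without Control 976/978, Control 981/982 or ONC 913/986, against 12.9%, 14.8% and 13.7% of all genes. Without ONC 976/978 it was 5 (13.2% against 15.9%), and without Control 914/92 it was 12 (31.6% against 23.7%). Of the 9 over all libraries, 5 were higher in ONC (Slc6a8, Slc7a3, Slc7a1, Slc7a8 and Slc3a2), where all genes gave 8.62%. The other 4 were lower (Slc6a17, Slc36a1, Slc6a7 and Slc7a14), where all genes gave 10.9%. The median difference was -0.075 over the members and -0.00062 over all genes, with 14 members above 0 and 24 below. The groups did not overlap in 2 members, Slc6a8 and Slc7a3, or 5.26% of members, against 7.83% of all genes; both were higher in ONC, as were 3.39% of all genes. Leaving out Control 914/92 raised that count to 10 of 38 members (19.1% of all genes), and leaving out both eyes of pool 914/92 also gave 10 (20.9%). Within the 4 pools that have both eyes, 17 members differed the same way in every pool (37.0% of all genes did), 8 upward (17.9%) and 9 downward (19.0%). In the 3 pools other than 914/92, 24 members did so (45.3% of all genes), 11 upward (22.4%) and 13 downward (22.9%). Without the 2 ONC libraries of pools 913/986 and 914/92, which were low in Y-linked RNA, the members' median was 0.016, with 21 above 0. In that fit Slc7a3 and Slc6a8, both on chromosome X, differed by 1.45 and 0.36, with adjusted p of 0.330 and 0.238 by limma. When 1 library was left out at a time, the difference changed sign in at least 1 fit for 16 of the 38 members, with differences of up to 0.30 in size. They were Slc1a1, Slc1a5, Slc1a6, Slc6a12, Slc6a13, Slc7a2, Slc7a4, Slc7a7, Slc7a10, Slc38a1, Slc38a6, Slc38a7, Slc38a8, Slc38a9, Slc38a10 and Slc43a3, and no direction is drawn for these.

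**Figure D1:**
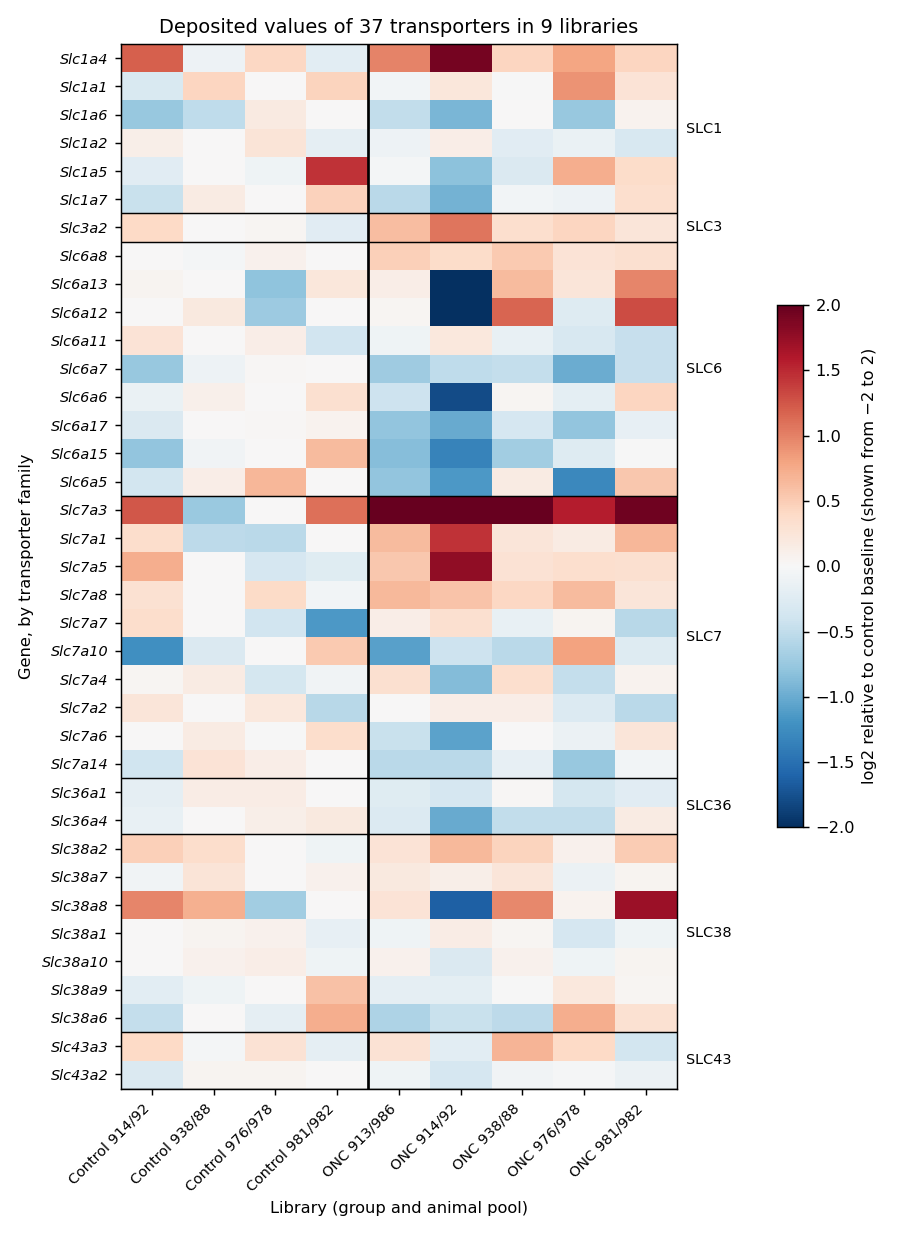
Heat map of the deposited values (log2 relative to the control baseline, colour shown from -2 to 2) of 37 transporters in rows, by family and sorted by difference, and the 9 libraries in columns. The row of Slc7a3 is red in all 5 ONC libraries, and ONC 914/92 holds the lowest value of 14 of them and the highest of 7.

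The libraries differed in ways that touch these genes. The mean of 4 Y-linked genes was -7.83 in ONC 914/92 and -7.88 in ONC 913/986, was -1.22 in Control 914/92, and lay between -0.031 and 0.51 in the other 6 libraries. The 2 libraries labelled as eyes of pool 914/92 disagree in Y-linked RNA, so their labels may be wrong, and statements on all 4 pools or with the pool as a block take them as a pair on the labels alone. In pulled-down RNA of pooled retinae, fewer cells of a type, less RNA per cell and a changed carry-over into the pull-down cannot be told apart. All 11 markers of Müller glia were measured, with a list median of -0.49 to 0.23 over Control and -0.24 to 0.50 over ONC libraries. Markers of other cells were measured too: 12 of 12 microglia markers lay above 0 (list median -0.097 to 0.12 in Control, 0.39 to 2.78 in ONC) with 1 past the test, and 9 of 10 markers of ganglion cells lay below 0 (-0.29 to 0.10 and -1.11 to -0.53), with 5 past the test. Of 8 listed markers of other leukocytes 4 were measured, and 3 of these passed the test upward (-0.081 to 0.53 and 1.85 to 3.18). Since each gene is set to its own baseline, these values alone do not show how near absence a marker is. The authors' filter on raw values was passed in only 1 of the 2 conditions by 3 of the 4 leukocyte markers. The same held for 3 of 12 microglia markers, 1 of 5 horizontal cell markers and all 4 Y-linked genes. Calls on genes that the filter kept through 1 condition are no separate support. How much the shifts of the marker lists contribute to any transporter value was not tested.

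The largest upward differences were in carriers of cationic and large neutral amino acids. Slc7a3 (CAT-3, gene ID 11989, chromosome X from 101079221 to 101085352 on mm10) read 1.25, -0.74, 0 and 1.10 in the Control libraries. In ONC it read 2.06, 3.10, 2.05, 1.57 and 1.95. Every ONC library lay above every Control library, and pool 914/92 was highest in each group. The means were 0.40 ± 0.94 (SD, n = 4) and 2.15 ± 0.57 (SD, n = 5), a 3.35-fold difference with a 95% confidence interval of 0.73 to 2.76 on the log2 scale and an adjusted p of 0.101 by limma. The controls alone spanned -0.74 to 1.25. Slc7a1 (CAT-1, the widespread importer of arginine and lysine, chromosome 5 from 148327410 to 148399904) read 0.35, -0.53, -0.54 and 0 in Control and 0.63, 1.44, 0.24, 0.16 and 0.66 in ONC. Its groups overlapped only through Control 914/92, which lay above 2 ONC libraries, and ONC was higher within all 4 pools. The difference was 0.81 ± 0.29 (SE), 1.75-fold, with an adjusted p of 0.186 by limma. Over other settings the adjusted p ranged from 0.0530, with the animal pool as a block, to 0.503 without ONC 913/986 and ONC 914/92. That block takes the 914/92 libraries as a pair, and a block without pool 914/92 gave 0.0953.

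Slc3a2 and its partners carry the exchange of large neutral amino acids. Slc3a2 (the heavy chain CD98, chromosome 19 from 8706882 to 8723369) read 0.40, 0, 0.040 and -0.22 in Control. It read 0.61, 1.07, 0.33, 0.43 and 0.24 in ONC, higher within every pool, with Control 914/92 inside the ONC range. The difference was 0.48 ± 0.19 (SE), with an adjusted p of 0.211. Slc7a5 (LAT1, which takes up leucine and other large neutral amino acids) read 0.73, 0, -0.34 and -0.25 in Control and 0.54, 1.78, 0.29, 0.34 and 0.32 in ONC. ONC 914/92 stood more than 1 log2 unit above the other 4 ONC libraries, and Control 914/92 was likewise the highest control. The difference was 0.62 ± 0.35 (SE) with an adjusted p of 0.338, and 0.34 without ONC 914/92. Slc7a8 (LAT2, a second partner of Slc3a2) read 0.31, 0, 0.38 and -0.060 in Control. Its ONC values were 0.65, 0.58, 0.41, 0.63 and 0.24, again higher within every pool but overlapping the controls, with a difference of 0.34 ± 0.13 (SE) and an adjusted p of 0.210. The other partners did not share this direction as a group: Slc7a7 (y+LAT1) differed by 0.25, Slc7a10 (Asc-1, which exchanges small neutral and D-amino acids) by -0.053 and Slc7a6 (y+LAT2) by -0.40, with adjusted p of 0.642, 0.950 and 0.376. Slc7a7 was at -0.035 without Control 981/982. Slc7a6 was lower within all 4 pools, but at -0.20 without ONC 914/92 and -0.079 without that library and ONC 913/986.

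**Figure D2:**
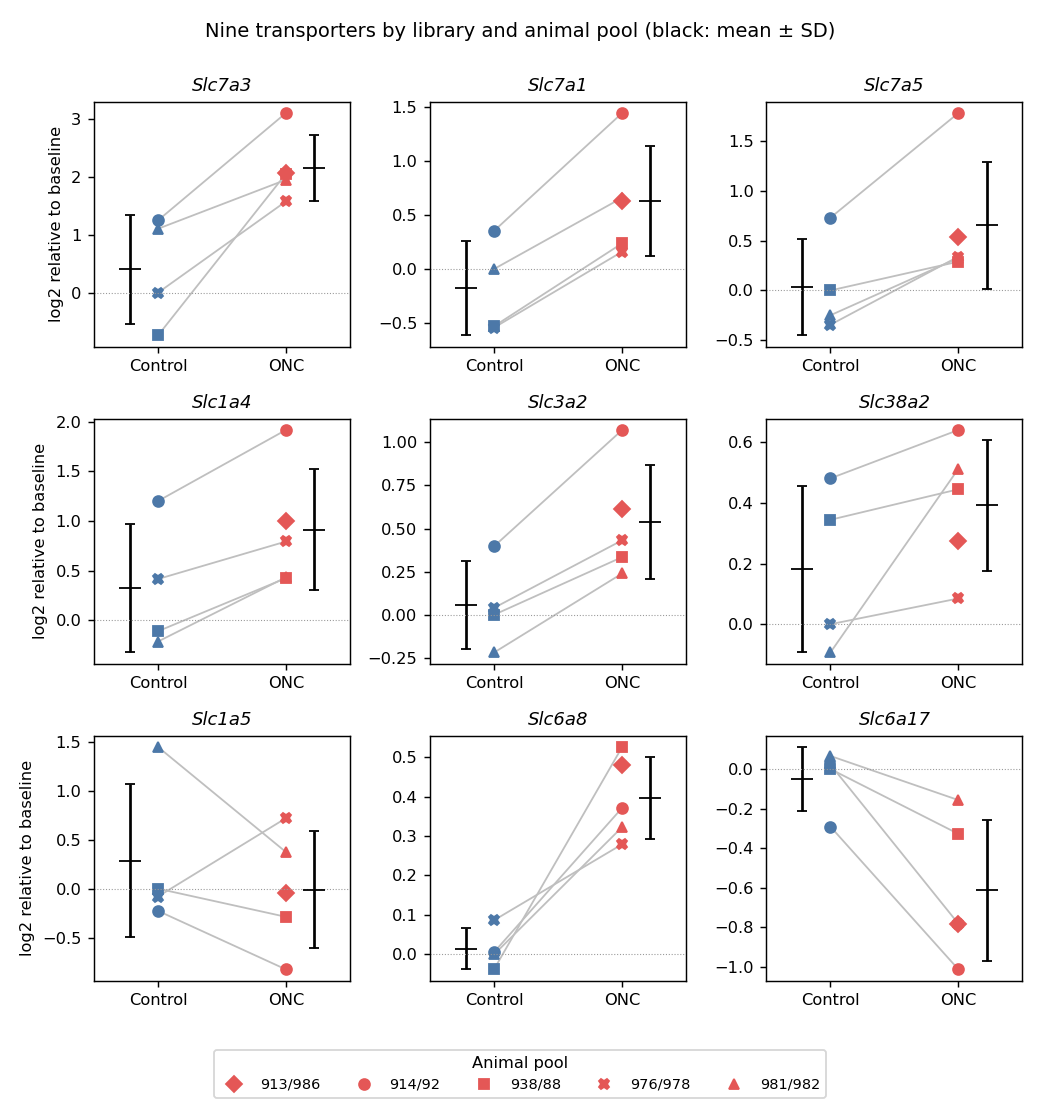
Values (log2 relative to the control baseline) of 9 transporters in Control (blue) and ONC (red) libraries, with grey lines joining the eyes of 1 animal pool and black marks for mean ± SD. Lines run upward in all 4 pools for Slc7a3, Slc7a1, Slc7a5, Slc1a4, Slc3a2, Slc38a2 and Slc6a8, and downward in all 4 for Slc6a17.

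The remaining cationic carriers had smaller or downward differences. Slc7a14, a lysosomal member that is mutated in human retinitis pigmentosa, differed by -0.41 ± 0.18 (SE) and was lower within all 4 pools (adjusted p of 0.255). Slc7a2 (CAT-2) and Slc7a4 differed by -0.079 and -0.071, with adjusted p of 0.835 and 0.889. In the SLC7 family 5 members lay above and 5 below 0, with a median of 0.098. That count includes Slc7a2, Slc7a4, Slc7a7 and Slc7a10, for which no direction is drawn. Of the rest, Slc7a1, Slc7a3, Slc7a5 and Slc7a8 lay above 0, and Slc7a6 and Slc7a14 below. The split moved with the setting. It was 7 above and 3 below after quantile normalization, 6 and 4 without Control 914/92, and still 5 and 5 without Control 981/982.

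Known targets of ATF4 among the transporters were listed as Slc1a4, Slc1a5, Slc3a2, Slc7a1, Slc7a3, Slc7a5 and Slc38a2. Of these 7, 6 were higher in ONC within all 4 pools, a pattern shown by 17.9% of all genes. None passed the test over all genes, 3 had an unadjusted p under 0.05 and were higher (8.62% of all genes), and the list's median was 0.59, against -0.10 over the other 31 members. The 3 became 5 without Control 914/92 and 1 without Control 938/88 or Control 976/978. The share of all genes at that p, in either direction, also moved, from 19.5% to 23.7%, 13.9% and 12.9% in these fits. Slc1a4 (ASCT1, an exchanger of alanine, serine, cysteine and threonine) read 1.20, -0.11, 0.42 and -0.21 in Control and 1.00, 1.92, 0.43, 0.79 and 0.43 in ONC. Control 914/92 exceeded 4 of the 5 ONC libraries, while within each pool ONC was the higher eye. The difference was 0.59 ± 0.38 (SE) with an adjusted p of 0.392, and 0.34 without ONC 914/92. Slc38a2 (SNAT2, which supplies glutamine and is adaptively raised when amino acids are short) read 0.48, 0.34, 0 and -0.093 in Control and 0.27, 0.64, 0.45, 0.085 and 0.51 in ONC, a difference of 0.21 with broad overlap (adjusted p of 0.466), and 0.12 without Control 981/982. Slc1a5 (ASCT2, the glutamine exchanger) differed by -0.30, with Control 981/982 at 1.45 and the remaining controls between -0.23 and 0. Without that control it was at 0.090, and all 7 of the list lay above 0. Its ONC values ran from -0.83 to 0.72, and 3 of 4 pools were lower.

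ONC 914/92 read highest for this list. The list's median was 1.44 in ONC 914/92 and between 0.34 and 0.62 in the other 4 ONC libraries. It was 0.48 in Control 914/92 and between -0.093 and 0 in the other 3 controls. Without ONC 914/92 the median difference was 0.34, without both eyes of the pool it was 0.57, and without ONC 913/986 and ONC 914/92, both low in Y-linked RNA, it was 0.28. In each of these 3 settings 6 of the 7 lay above 0. The median of the other 31 members was -0.062, -0.17 and -0.0010 in the same settings.

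Promoter sequences show which of these genes carry, beside their start, letters that ATF4 or AP-1 factors are known to bind. RefSeq promoters (GRCm38.p6, from 250 bases before to 50 after the start) were found for 26 members, among them Slc1a4, Slc3a2, Slc7a1 and Slc38a2 of the ATF4 list. The letters searched on both strands were TGATGNAA (reverse complement TTNCATCA), bound by ATF4 with a C/EBP partner, and TGANTCA, bound by AP-1. They are in capitals in the promoters printed here, chosen as 3 of the upward members and, in Slc6a17, the downward member with the smallest p. No match to one overlapped a match to the other in a member's promoter.
Slc1a4 (chr11:20332664-20332963, minus strand): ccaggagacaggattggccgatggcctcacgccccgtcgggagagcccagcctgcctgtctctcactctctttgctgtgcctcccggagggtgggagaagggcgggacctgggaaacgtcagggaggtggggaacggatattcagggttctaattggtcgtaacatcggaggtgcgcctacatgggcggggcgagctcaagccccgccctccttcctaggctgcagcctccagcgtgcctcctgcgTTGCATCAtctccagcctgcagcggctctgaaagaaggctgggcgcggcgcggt
Slc3a2 (chr19:8713848-8714147, minus strand): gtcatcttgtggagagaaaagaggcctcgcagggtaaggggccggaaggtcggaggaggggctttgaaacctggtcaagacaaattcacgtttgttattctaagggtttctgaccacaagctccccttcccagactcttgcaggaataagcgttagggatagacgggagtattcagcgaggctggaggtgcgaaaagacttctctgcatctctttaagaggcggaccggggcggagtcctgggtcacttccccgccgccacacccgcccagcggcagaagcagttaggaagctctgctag
Slc7a1 (chr5:148399855-148400154, minus strand): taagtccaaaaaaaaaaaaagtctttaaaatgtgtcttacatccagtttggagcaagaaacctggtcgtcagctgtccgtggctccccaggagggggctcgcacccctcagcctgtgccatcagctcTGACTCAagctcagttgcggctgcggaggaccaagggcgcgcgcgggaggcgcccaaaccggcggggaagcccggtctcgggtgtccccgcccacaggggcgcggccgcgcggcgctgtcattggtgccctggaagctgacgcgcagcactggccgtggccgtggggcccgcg
Slc6a17 (chr3:107517969-107518268, minus strand): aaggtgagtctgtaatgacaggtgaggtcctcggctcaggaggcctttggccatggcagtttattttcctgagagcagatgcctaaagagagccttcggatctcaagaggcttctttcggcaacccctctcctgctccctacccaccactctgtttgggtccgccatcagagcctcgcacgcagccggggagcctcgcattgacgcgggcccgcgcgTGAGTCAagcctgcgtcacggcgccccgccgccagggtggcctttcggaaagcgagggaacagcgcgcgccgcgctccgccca
In Slc1a4 the ATF4-type letters begin 4 bases before the start, as TTGCATCA. They were found in 2 of the 26 members, the other being Slc7a7, and in 2.71% of measured genes with a promoter. TGANTCA lies 123 bases before the start of Slc7a1 and 33 bases before that of Slc6a17, and was found in 6 of the 26 members (23.1%), against 6.07% of measured genes. The 6 are Slc38a7, Slc38a10, Slc6a12, Slc6a17, Slc6a5 and Slc7a1, whose differences run from -0.61 to 0.81, so these letters stand before genes that differed in opposite directions. The letters of a STAT site, TTCNNNGAA, were in 2 members (7.69%, against 8.06%), and those of an antioxidant element, TGACNNNGC, in 6 (23.1%, against 16.7%).

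Among SLC6 carriers, which take up transmitters and osmolytes, 8 of 10 members lay below 0 and the family's median was -0.31. The creatine transporter Slc6a8 (chromosome X from 73673133 to 73682500) was the clearest exception. It read 0.0060, -0.037, 0.087 and 0 in Control and 0.48, 0.37, 0.53, 0.28 and 0.32 in ONC. Its spread within groups (pooled SD 0.086) was the smallest of all members, and every ONC library exceeded every control. The means were 0.014 ± 0.052 (SD, n = 4) and 0.40 ± 0.10 (SD, n = 5), a 1.3-fold difference (0.38 ± 0.083 (SE), confidence interval 0.19 to 0.57). Its adjusted p was 0.0677, and it ranged from 0.0668 to 0.280 over the other settings tried.

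Slc6a17, Slc6a15, Slc6a5 and Slc6a7 are carriers best known from neurons, and all had negative differences. Slc6a17 (NTT4, a vesicle carrier of neutral amino acids in nerve terminals, chromosome 3 from 107467548 to 107518018) read -0.29, 0, 0.022 and 0.066 in Control. In ONC it read -0.78, -1.01, -0.33, -0.78 and -0.16, lower within every pool, with only ONC 981/982 above the lowest control. The difference was -0.56 ± 0.18 (SE), a 1.48-fold lower level, with an adjusted p of 0.161. Slc6a15 (B0AT2, a neuronal carrier of branched-chain amino acids and proline) read -0.80, -0.078, 0 and 0.64 in Control and -0.85, -1.34, -0.70, -0.26 and -0.0054 in ONC. It too was lower within every pool, but its controls spanned as wide a range as its ONC libraries, and the difference of -0.57 ± 0.33 (SE) had an adjusted p of 0.351. It was -0.34 without Control 981/982 and -0.26 without ONC 913/986 and ONC 914/92. Slc6a5 (GlyT2, the glycine transporter of glycinergic nerve endings) read -0.36, 0.13, 0.67 and 0 in Control and -0.79, -1.15, 0.16, -1.29 and 0.53 in ONC. It had the most negative difference of all members, -0.61 ± 0.40 (SE), but ONC 938/88 and ONC 981/982 were higher than their fellow eyes, and the adjusted p was 0.405. Slc6a7 (the brain proline transporter) read -0.75, -0.11, 0.023 and 0.0089 in Control. Its ONC values were -0.72, -0.51, -0.48, -0.99 and -0.46, with Control 914/92 as low as the ONC libraries, and it differed by -0.43 ± 0.19 (SE) (adjusted p of 0.250).

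Markers of retinal neurons were low in some of the same libraries. The median of 8 amacrine markers ran over -0.45 to 0.18 in Control and -0.78 to 0.14 in ONC, with Control 914/92 lowest among controls and ONC 914/92 lowest of all. All 8 bipolar markers and all 10 photoreceptor markers lay below 0, with none past the test and medians of -0.34 and -0.43. Their list medians ran over -0.48 to 0.15 and -0.64 to 0.22 in Control and over -0.92 to 0.082 and -1.20 to 0.097 in ONC. Of 5 horizontal cell markers 4 lay below 0 and 1 passed the test, with list medians of -0.16 to 0.35 in Control and -1.68 to -0.26 in ONC. The part of neuronal RNA in the differences of Slc6a17, Slc6a15, Slc6a5 and Slc6a7 was not tested.

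**Figure D3:**
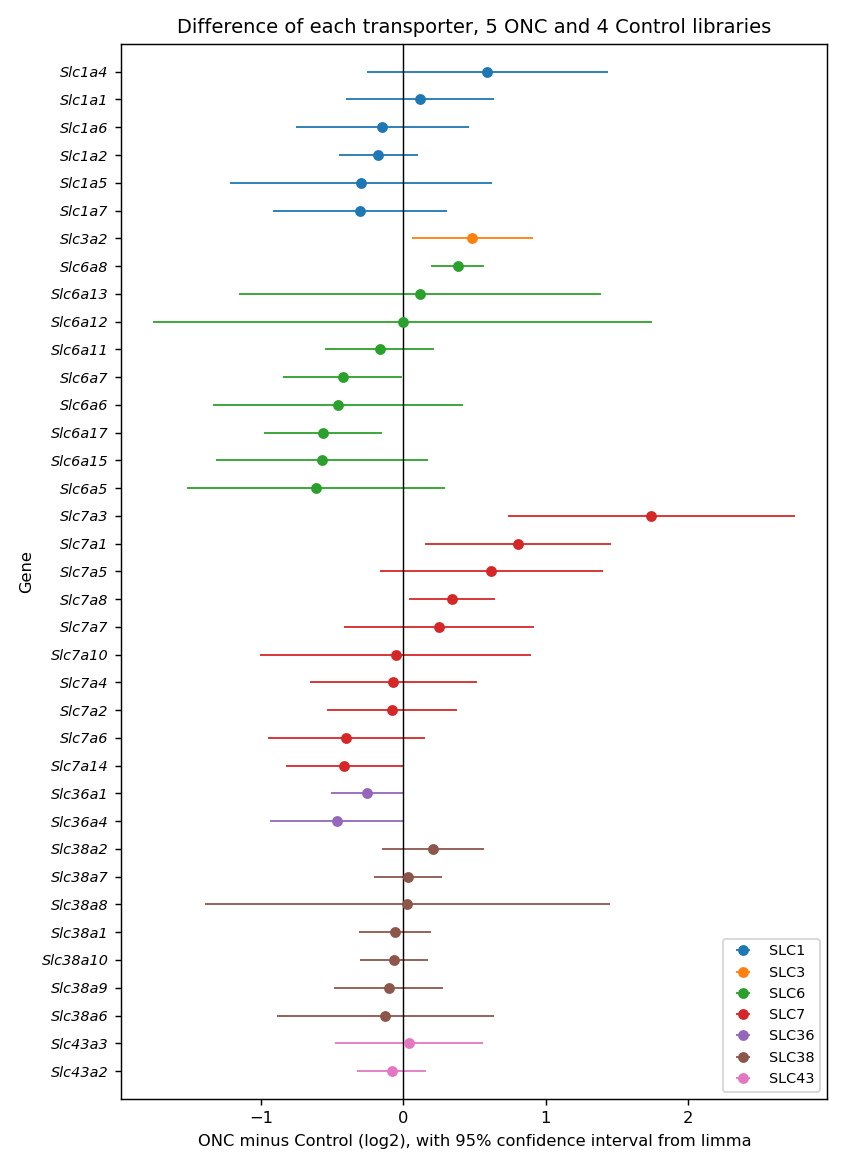
Difference of each of 37 transporters between ONC and Control (log2, points) with its 95% confidence interval from limma (lines), by family in colour. Slc7a3 stands farthest to the right at 1.74, the interval of Slc6a8 is the narrowest of the upward members, and those of Slc6a12, Slc6a13 and Slc38a8 span more than 2 log2 units around 0.

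Slc6a11 (GAT3), which takes up GABA from around synapses, differed by -0.17 ± 0.17 (SE), with an adjusted p of 0.582. It was lower in ONC within all 4 pools, and at -0.077 without Control 914/92. Its interval, -0.55 to 0.22, includes 0 and reaches below -0.5 on the log2 scale.

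Slc6a13 differed little between the groups and varied widely within them. Slc6a13 (GAT2, a carrier of GABA, taurine and betaine known from the meninges, vessels and the retinal pigment epithelium; chromosome 6 from 121300296 to 121337718) read 0.052, 0, -0.81 and 0.22 in Control. In ONC it read 0.14, -2.06, 0.63, 0.24 and 0.97, so that ONC 914/92 was the lowest and ONC 981/982 the highest of all 9 libraries. The means were -0.13 ± 0.46 (SD, n = 4) and -0.016 ± 1.19 (SD, n = 5), with a difference of 0.12 ± 0.56 (SE) and an adjusted p of 0.917. Without ONC 914/92 the difference was 0.63, and without both eyes of that pool 0.69, neither past the test. Its neighbour Slc6a12 (BGT1, the betaine and GABA carrier, chromosome 6 from 121346697 to 121365773) had the same order at both ends, with 0, 0.20, -0.72 and 0.015 in Control and 0.044, -2.92, 1.16, -0.25 and 1.30 in ONC. Its difference was -0.0044, with an interval of -1.76 to 1.75, and 0.69 without ONC 914/92 or 0.73 without both eyes of the pool. Slc6a6, the taurine transporter, was likewise lowest in ONC 914/92, at -1.78, and between -0.41 and 0.44 elsewhere, with a difference of -0.46 ± 0.39 (SE) that was -0.11 without that library and 0.018 without it and ONC 913/986. Slc38a8 (SNAT8, mutated in a human disorder of foveal development) ran from -1.63 to 1.71 over the ONC libraries, with the same lowest and highest library. The values of Slc6a13 followed those of Slc6a12 with r = 0.970 and those of Slc38a8 with r = 0.913 over the 9 libraries. In ONC 914/92, the median of 7 endothelial markers was -1.70 and that of 6 markers of fibroblasts and meninges -0.76, the lowest of all libraries in both lists, while the Müller list was at 0.50, its highest. The median of 5 markers of the retinal pigment epithelium was 0.11 there and lowest in ONC 938/88, at -0.84, where Slc6a13 read 0.63. The part of such cells in the low values was not tested.

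**Figure D4:**
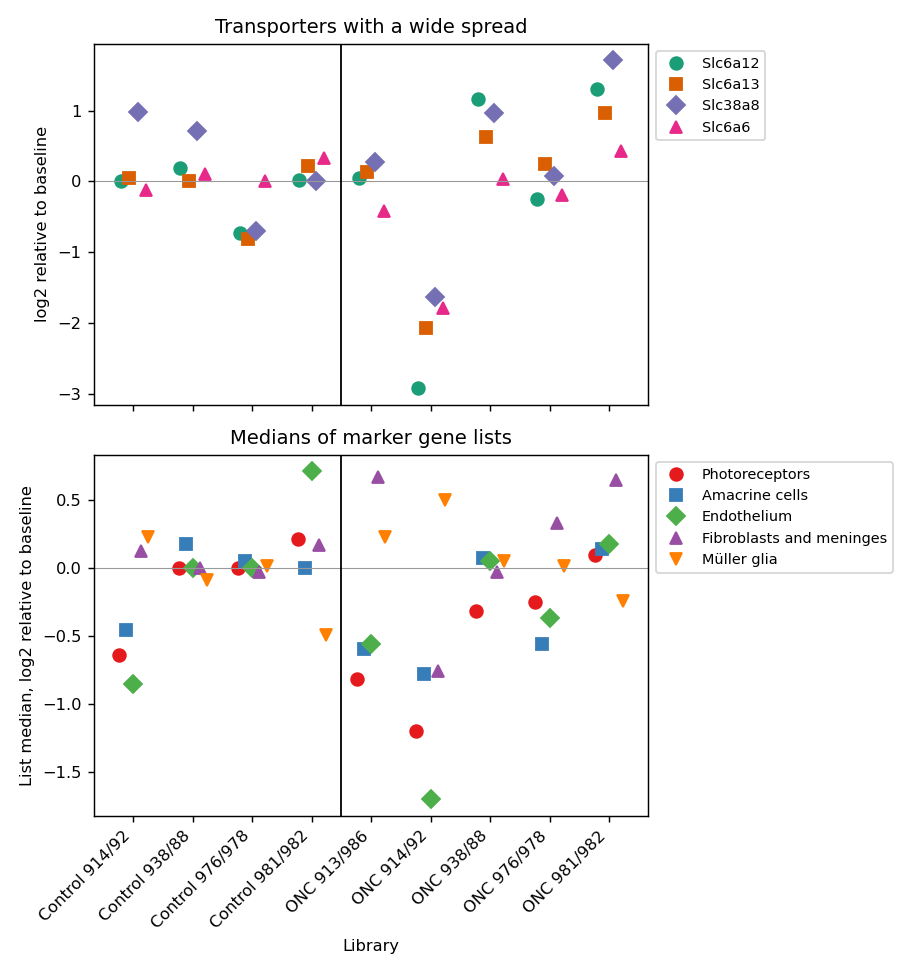
Upper panel: values of Slc6a12, Slc6a13, Slc38a8 and Slc6a6 (log2 relative to the control baseline) in each library, Control left and ONC right of the line. Lower panel: median of 5 marker lists in the same libraries, where ONC 914/92 is lowest for 4 lists and highest for Müller glia, as it is lowest for the 4 transporters above.

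The 4 glutamate transporters had intervals that include 0. Slc1a2 (GLT-1, the main forebrain glutamate transporter, found in bipolar cells and cones of the retina) differed by -0.18 ± 0.12 (SE), Slc1a1 (EAAC1) by 0.12 ± 0.23 (SE), Slc1a6 (EAAT4) by -0.15 ± 0.27 (SE) and Slc1a7 (EAAT5, known from photoreceptors and bipolar cells) by -0.31 ± 0.27 (SE). Slc1a7 was lower within all 4 pools and Slc1a2 within 3. Slc1a7 was at -0.14 without ONC 914/92, -0.17 without Control 981/982 and 0.014 without ONC 913/986 and ONC 914/92, and Slc1a2 at -0.11 without Control 976/978. The adjusted p of these 4 lay between 0.438 and 0.781. Over the 6 members of SLC1 the median was -0.16, with 2 members above 0 and 4 below, and 0.017 without Control 981/982.

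The SLC36 carriers lay below 0, and most SLC38 and SLC43 carriers differed by 0.21 or less. Slc36a4 (PAT4, a carrier of proline and tryptophan) read -0.15, 0, 0.12 and 0.20 in Control and -0.28, -1.01, -0.50, -0.49 and 0.17 in ONC, lower within every pool, with a difference of -0.46 ± 0.21 (SE) and an adjusted p of 0.262. Slc36a1 (PAT1, which exports amino acids from lysosomes) read -0.18, 0.14, 0.15 and 0 in Control and -0.24, -0.34, 0.022, -0.35 and -0.22 in ONC. It too was lower within every pool, while overlapping the controls, and differed by -0.26 ± 0.11 (SE) (adjusted p of 0.250). In SLC38, beside Slc38a2 and Slc38a8, the differences were -0.059 for Slc38a1 (SNAT1), -0.13 for Slc38a6, 0.034 for Slc38a7 (which releases glutamine from lysosomes), -0.10 for Slc38a9 (the lysosomal arginine sensor) and -0.064 for Slc38a10. The family's median was -0.059. Slc38a1, Slc38a7 and Slc38a10 varied little between libraries, each within a range of less than 0.5. Slc43a2 (LAT4, a carrier of branched-chain amino acids and phenylalanine) read -0.29, 0.047, 0.060 and 0 in Control and -0.083, -0.34, -0.075, -0.020 and -0.11 in ONC, a difference of -0.082 ± 0.11 (SE), and -0.028 without ONC 914/92. Slc43a3, a carrier of purine nucleobases, differed by 0.040.

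The rule kept out 4 further transporters. Slc7a11, the cystine and glutamate exchanger, differed by 0.98 ± 0.25 (SE) (adjusted p of 0.104 by limma). It was higher in ONC within 3 pools and lower within pool 914/92, by -0.22. Its adjusted p was under 0.05 in a fit without Control 914/92. That fit leaves out its highest control, at 0.93, so the call is no separate support. Slc1a3, the Müller cell glutamate transporter GLAST, differed by 0.046, Slc38a3 (SNAT3, which releases glutamine) by -0.20 and Slc6a9 (GlyT1) by -0.15.

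Other genes of the same pathways, among them enzymes, vesicle carriers and sensors, were read from 3 further lists. Of 16 genes for amino acid synthesis and tRNA charging under ATF4, 15 lay above 0 and 12 were higher in ONC within all 4 pools (17.9% of all genes), with a median of 0.47. None passed over all genes and 6 had an unadjusted p under 0.05 and were higher (8.62% of all genes). Asns (asparagine synthetase) read 0.11, 0.26, -0.47 and 0 in Control and 1.16, 1.62, 1.04, 0.36 and 0.94 in ONC, with no overlap, a difference of 1.05 ± 0.24 (SE) and an adjusted p of 0.0830. Sars, Gars and Nars, which charge tRNA with serine, glycine and asparagine, differed by 0.55, 0.57 and 0.49, also with no overlap between the groups (3.39% of all genes were higher in this way). Atf4 itself differed by 0.37 and Pycr1, of proline synthesis, by 1.06 ± 0.60 (SE). Without ONC 914/92 the list's median was 0.30, with 14 of 16 above 0. Of 14 genes of the glutamate and GABA cycle, 11 lay below 0 with a median of -0.25. Among them Gls2, a glutaminase, differed by -0.59 and Glul (glutamine synthetase) by -0.26, and 1 of the 14 had an unadjusted p under 0.05 and was lower, a share below the 10.9% of all genes. Gad1, Gad2, Slc32a1, Slc17a6 and Glul of the glutamate and GABA list are also markers of amacrine cells, ganglion cells or Müller glia above. That list therefore partly repeats the marker lists. Of 13 measured genes of amino acid sensing by mTORC1, which include the member Slc38a9, 5 lay above 0 and 8 below. Mtor and Sesn3 differed by -0.72 and -0.69, and Sesn2, a leucine sensor, by 0.46, with adjusted p of 0.136, 0.126 and 0.216.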

How the data were processed

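Values of 9 libraries were taken from 1 deposited table. Per the file headers, the authors deposited normalized values of RefSeq genes, kept where raw values lay between 5.0 and 298892.188 in 100 percent of the samples of at least 1 of 2 conditions. All 38 members passed in both conditions. That the authors' deposited values are on a log2 scale, each gene set to a control baseline, was read from the table itself, in which 13230 of 14194 genes have exactly 1 control library at 0. The submitters' processing notes name DESeq, without a version, and mm10. No aligner or counter is given in these sources, and since no counts were used, the depth of each library is unknown.

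Each gene was fitted with limma 3.58.1 (R 4.3.3), ONC minus Control over all 9 libraries, with empirical Bayes moderation and neither a variance trend nor a block. Tests were two-sided, with Benjamini-Hochberg adjustment over the 14194 genes and a call at an adjusted p under 0.05. A trend was not used because the mean of values centred on controls carries the difference under test. It was an alternative, with the pool as a replicate block, other scalings, the genes past the filter in both conditions, robust variances and leaving out libraries. The fit was tested on simulated data. Replicates are pools of animals. By the labels, the animal numbers give 4 pairs of fellow eyes, of which pool 914/92 is in doubt from its Y-linked RNA. Their deviations from the group means correlated at 0.377, 0.178, -0.064 and 0.450, in the order of the controls. Control and ONC libraries of different pools correlated at -0.489 to 0.409. The highest of these was Control 914/92 with ONC 913/986, above Control 914/92 with its labelled partner. The correlations therefore do not settle the pairing.

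Values in every library are given for members among the 8 smallest p, the 4 largest differences in each direction, the largest of each family, and Slc6a13. Slc6a12, Slc6a6, Slc38a8 and the genes named from the pathway lists were picked after their values were seen. The members, lists and tests were chosen with earlier results of these data known. Slc6a20a, which the name pattern misses, was not used. The monoamine carriers Slc6a2, Slc6a3 and Slc6a4 were not analysed here. The values of 1 member are not reported here; counts and medians include it.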

Additional observations from a re-analysis of the deposited data

Results flagged for a closer look

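In 4 of 32 groups of values of the 16 transporters chosen by p and size, 1 library stood apart from the rest by Dixon's ratio. For separate groups not chosen by their values, chance gives this in about 1 of 20. The groups here share the same libraries and come from transporters chosen on these data, so no excess over chance is read from the count. In 3 of the 4 the library that stood apart was ONC 914/92. It read 1.78 for Slc7a5, above the other ONC libraries, and -2.06 for Slc6a13 and -0.34 for Slc43a2, below them. Control 914/92 stood apart for Slc6a7, at -0.75, below the other controls.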

How the results depend on the processing

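None of the 38 members passed under any of the 19 alternatives. Of 304 refitted differences of the 16 transporters chosen by the rule on p and size, 301 kept their direction. The exception among these 16 was Slc6a13, which ran from -0.13 to 0.63 when 1 library was left out. It was below 0 without Control 976/978 (-0.11), ONC 938/88 (-0.045) or ONC 981/982. These transporters were picked mainly for small p or large differences in the same data. A variance trend or robust variances also leave every difference unchanged, so the count is no separate support for their directions. Over all 38 members, 16 changed sign in at least 1 fit with 1 library left out. Over all genes 165 passed. With the replicate block (the animal pool) 129 passed, with a variance trend 50, with block and trend together 0, after quantile normalization 30, among genes past the filter in both conditions 102 and without the ONC libraries of pools 913/986 and 914/92 72. A block without pool 914/92, added after the Y-linked values were seen, gave 20. Leaving out single libraries gave 62 to 234. The block changed no member's call. The count of members without overlap was 1 after quantile normalization, 10 without both eyes of pool 914/92, and 2 to 10 with 1 library left out (10 without Control 914/92, 5 without ONC 981/982). The SLC7 median was 0.26 without pool 914/92 and 0.085 to 0.20 with 1 library left out. The SLC38 median ran from -0.085 to 0.041 with 1 library left out, above 0 without Control 981/982, ONC 913/986, ONC 914/92 or ONC 976/978, and also with the block (0.00030) and without ONC 913/986 and ONC 914/92 together (0.0032). The cause of these shifts was not tested. The number of libraries limits the precision. Within groups, the median pooled SD was 0.374 for members and 0.240 for all genes, so the typical member varied more between libraries.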
